A study of Mus musculus with 12 samples.

Results

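The comparison described here is the difference in stroke response between mice without Lama4 and wild-type (WT) mice. In each pool of mice the change of a gene was taken as log2 CPM (read counts scaled to a common library size) in the ipsilateral (stroke) hemisphere minus log2 CPM in the contralateral (control) hemisphere. The 3 Lama4-/- pools were then set against the 3 WT pools. All 12 of 12 libraries of the series entered, as 6 pools with both hemispheres, and 15351 of 20347 gene entries were tested. A value above 0 means that the gene rose more, or fell less, after stroke in Lama4-/- mice.

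Lama4 encodes laminin alpha 4, a chain of the laminins that endothelial cells deposit in the basement membrane of blood vessels throughout the body. Basement membrane laminins are bound by integrins and dystroglycan and are known to shape endothelial junctions and the sites at which leukocytes leave the blood. After ischemia and reperfusion, brain tissue is known to turn on immediate early genes, cytokines, chemokines, endothelial adhesion molecules and heat shock genes, while reactive astrocytes and microglia change state and leukocytes enter.

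All mice were 12-week-old males, and in all of them the left middle cerebral artery was closed with an intraluminal filament for 60 min and reopened for 24 h. The groups were WT contralateral, WT ipsilateral, Lama4-/- contralateral and Lama4-/- ipsilateral, with 3 libraries each. Each library was a pool of 2 mice, perfused with PBS, with olfactory bulb and cerebellum removed and a washing step meant to take away blood and its immune cells. The genotype label names a deletion without a cell type or Cre driver, so it is not limited to vessels as far as the label says, and the contralateral hemisphere is an internal control rather than tissue from an uninjured mouse.

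Library totals ran from 27537167 to 44113824 reads, so that 1 CPM stood for 27.5 to 44.1 reads. Lama4 itself was at 10.8, 7.47 and 9.27 CPM in the WT contralateral pools and at 0.337, 0.312 and 0.206 CPM in the Lama4-/- contralateral pools. In the ipsilateral hemispheres it was at 14.8, 14.7 and 14.5 CPM in WT and 0.797, 0.219 and 0.583 CPM in Lama4-/- pools, so every library matched its genotype label. Its stroke change rested on 6 to 33 reads per Lama4-/- library and differed by 0.15 on the log2 scale (unadjusted p = 0.715, edgeR quasi-likelihood test). Neuronal, astrocytic, myelin, microglial and endothelial markers were abundant in every library. Scaled by library totals alone, the neutrophil marker Ly6g reached at most 0.101 CPM, the monocyte marker Ly6c2 0.0666, the T cell marker Cd3e 0.256 and the red cell gene Hba-a1 0.0275, each with 0 reads in at least 1 library. Other markers of these cells were higher on the same scale. The neutrophil marker S100a8 ranged from 0.204 to 5.46 CPM and the monocyte marker Ccr2 from 0.212 to 3.17 CPM. The red cell gene Hbb-bs was at 1.38 to 3.43 CPM, so RNA of these cells was not absent. The olfactory bulb marker Doc2g ranged from 5.18 to 24.1 CPM although the label gives that region as removed.

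No gene's stroke response differed between genotypes at an adjusted p under 0.05. The edgeR quasi-likelihood test called 0 of 15351 genes (0.00%), with 665 at an unadjusted p under 0.05 (4.33%), of which 310 were higher in Lama4-/- (2.02%) and 355 lower (2.31%). The smallest adjusted p was 0.449, for the chemokine gene Ccl9. DESeq2 called 1 gene, Ccl9, limma voom called 0 with 692 at an unadjusted p under 0.05, and limma on the 6 pool differences called 0 with 722. The precision behind this result varied with level. The median standard error of the log2 difference was 0.119 and the median half-width of its 95% interval was 0.264. The interval excluded a 2-fold difference in either direction for 13503 genes (88.0%). Of the 13139 genes with a mean log2 CPM of at least 1, it did so for 12855 (97.8%), and for the other 284 a 2-fold difference was not excluded. A difference of at least 2-fold was estimated for 151 genes, of which 14 had a mean log2 CPM of at least 1.

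**Figure D1:**
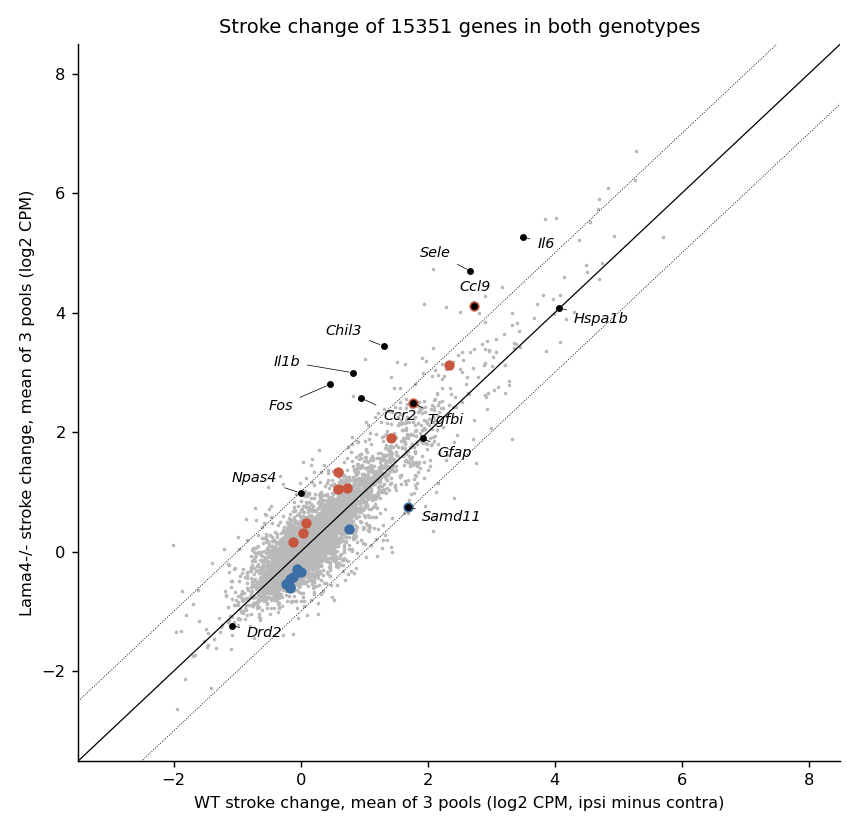
Stroke change (log2 CPM, ipsilateral minus contralateral, mean of 3 pools) of 15351 genes in WT (x axis) and Lama4-/- mice (y axis), 1 point per gene. The solid line marks equal change and the dotted lines a 2-fold difference; red and blue points are the 10 genes named with the smallest p in the higher and lower direction, and black points carry a gene name. Ccl9 at 2.72 and 4.12 lies above the upper dotted line and Gfap on the solid line.

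The response itself was broad in both genotypes. In WT, 3608 genes changed with stroke (23.5%), 2024 up (13.2%) and 1584 down (10.3%). In Lama4-/-, 4906 changed (32.0%), 2494 up (16.2%) and 2412 down (15.7%). Of these, 2906 changed in both genotypes, which was 80.5% of the WT genes and 59.2% of the Lama4-/- genes, and all 2906 moved in the same direction, 1663 up and 1243 down. A call in a single genotype did not amount to a difference between genotypes. Of the 702 genes called in WT alone, 96.4% had the same sign in Lama4-/- mice, and 66 had an unadjusted p under 0.05 for the difference. Of the 2000 called in Lama4-/- alone, 96.8% had the same sign in WT, and 297 had an unadjusted p under 0.05. Over all tested genes that share was 4.33%. Both sets were picked by a call in a single genotype of the same fit, so these counts are not a test. None of either set passed the adjusted threshold for the difference. The WT count fell to 2008, 1577 and 1658 when WT pools 1, 2 and 3 were left out in turn.

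Whether the response as a whole was larger in one genotype was asked with 1 value per pool, the SD of the log2 change over all tested genes. It was 0.470, 0.575 and 0.487 in WT pools 1 to 3 and 0.605, 0.615 and 0.512 in the Lama4-/- pools. WT pool 2 lay above Lama4-/- pool 3, so the genotypes overlapped. The means were 0.510 ± 0.0562 in WT and 0.577 ± 0.0564 in Lama4-/- (SD, n = 3), with a two-sided exact permutation p of 0.2, where 3 pools against 3 cannot give less than 0.1 (adjusted p = 0.267 over 4 measures of size). Genes that rose at least 2-fold numbered 553, 866 and 611 in the WT pools and 879, 879 and 653 in the Lama4-/- pools. Averaged over both genotypes, 6698 genes changed with stroke (43.6%). Among the 3395 of them that rose (22.1%), the genotype difference was above 0 for 62.9%, with a median of 0.05. Among the 3303 that fell (21.5%), it was above 0 for 32.8%, with a median of -0.06, against 46.8% above 0, 53.2% below 0 and a median of -0.01 over all tested genes. The median change of the genes that rose was 0.32, 0.45 and 0.34 in the WT pools and 0.48, 0.45 and 0.34 in the Lama4-/- pools, so that WT pool 2 was level with Lama4-/- pool 2 and WT pool 3 with Lama4-/- pool 3.

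Ccl9 had the smallest p of all genes. It encodes a CC chemokine of mice that acts through the receptor Ccr1 on myeloid cells, and lies at chr11:83572917-83578636 (mm10). Its level in the contralateral hemisphere was 1.07, 2.11 and 1.05 CPM in WT pools 1 to 3 and 1.32, 1.18 and 0.756 CPM in the Lama4-/- pools. In the ipsilateral hemisphere it was 6.39, 16.4 and 7.24 CPM in WT and 24.3, 18.3 and 16.0 CPM in Lama4-/- pools. The ipsilateral levels overlapped, since WT pool 2 lay above Lama4-/- pool 3, but the changes within pools did not. The log2 changes were 2.52, 2.92 and 2.72 in WT, 2.72 ± 0.20 (SD, n = 3), and 4.14, 3.90 and 4.31 in Lama4-/- pools, 4.12 ± 0.21 (SD, n = 3). The difference was 1.37 (SE 0.19, 95% interval 0.94 to 1.79, unadjusted p = 2.92e-05, adjusted p = 0.449) by edgeR. DESeq2 gave 1.39 with an adjusted p of 0.0295, and over the other alternatives the adjusted p ran up to 1.00.

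The promoters of Ccl9 and of the activity genes Npas4 and Btg2 are shown because these are the 3 genes that passed an adjusted threshold in any alternative. Each runs from 250 bases before to 50 bases after the start of the gene, 5′ to 3′ on the gene's strand, from RefSeq on GRCm38.p6, and all 3 genes lie on the minus strand. The windows are chr11:83578587-83578886 for Ccl9, chr19:4989922-4990221 for Npas4 and chr1:134079106-134079405 for Btg2. Capitals mark matches on either strand to 5 motifs.
Ccl9: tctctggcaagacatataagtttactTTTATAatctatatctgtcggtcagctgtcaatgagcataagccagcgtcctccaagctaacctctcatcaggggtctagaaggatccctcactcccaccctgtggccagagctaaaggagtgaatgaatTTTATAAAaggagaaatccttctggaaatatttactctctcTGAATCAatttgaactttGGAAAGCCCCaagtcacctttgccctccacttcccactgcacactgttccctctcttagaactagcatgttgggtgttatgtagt
Npas4: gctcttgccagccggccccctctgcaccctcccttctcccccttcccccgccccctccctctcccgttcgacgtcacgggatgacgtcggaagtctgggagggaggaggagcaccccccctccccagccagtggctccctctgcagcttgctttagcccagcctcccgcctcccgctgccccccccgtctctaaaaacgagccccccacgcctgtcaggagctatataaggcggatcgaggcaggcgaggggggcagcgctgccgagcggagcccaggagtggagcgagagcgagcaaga
Btg2: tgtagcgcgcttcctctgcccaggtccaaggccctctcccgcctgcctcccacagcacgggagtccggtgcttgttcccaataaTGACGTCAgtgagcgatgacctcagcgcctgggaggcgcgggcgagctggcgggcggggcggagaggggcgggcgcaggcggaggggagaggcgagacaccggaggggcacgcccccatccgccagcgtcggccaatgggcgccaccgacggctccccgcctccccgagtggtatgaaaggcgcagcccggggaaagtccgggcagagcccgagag
The motifs were the cyclic AMP response element TGACGTCA (in 1.79% of 32851 RefSeq promoters), the AP-1 site TGANTCA (7.81%), the NF-kappaB site (1.63%), the TATA box TATAAA (13.6%) and the CArG box (1.63%). The Ccl9 window held an AP-1 match at bases 198 to 204, an NF-kappaB match on the opposite strand at bases 216 to 225, and 3 matches to TATAAA, of which 2 overlap. The Btg2 window held a cyclic AMP response element match at bases 85 to 92. The Npas4 window held no match to these letters. These matches describe the letters of the windows and are not measurements of binding.

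Among genes with a mean log2 CPM of at least 1 whose pools did not overlap, the 10 with the smallest p in the higher direction were Ccl9, Tgfbi, Cp, Tgm2, RO60, Csf1, Slc35a3, Kdm5a, Ch25h and Trib1. Pools failed to overlap for 1753 genes in all (11.4%), 692 higher in Lama4-/- (4.51%) and 1061 lower (6.91%), and with DESeq2 size factors the split was 840 to 919. Tgfbi, a matrix protein induced by transforming growth factor beta, had log2 changes of 1.49, 2.01 and 1.81 in the WT pools and 2.54, 2.70 and 2.25 in the Lama4-/- pools, a difference of 0.75 (SE 0.16, 95% interval 0.40 to 1.10, unadjusted p = 0.000742, adjusted p = 0.874) by edgeR. Its ipsilateral level was 19.5, 28.6 and 23.1 CPM in WT and 49.1, 42.4 and 23.6 CPM in Lama4-/-, so that Lama4-/- pool 3 was within the WT range. Csf1, the growth factor of microglia and macrophages, went from 32.4, 31.7 and 30.5 to 51.8, 54.7 and 51.1 CPM in WT and from 31.9, 30.9 and 28.6 to 73.3, 62.7 and 57.0 CPM in Lama4-/- pools. Its ipsilateral levels were above all WT levels in every Lama4-/- pool, and the difference of changes was 0.34 (unadjusted p = 0.00297). Cp, the ferroxidase ceruloplasmin, had log2 changes of 0.44, 0.67 and 0.68 in WT and 1.12, 1.10 and 0.93 in Lama4-/-, a difference of 0.46 (unadjusted p = 0.000917). Cp was lower in the Lama4-/- contralateral hemisphere (-0.34 on the log2 scale) and 0.11 apart in the ipsilateral one. Ch25h, which makes 25-hydroxycholesterol, and Tgm2, a transglutaminase that cross-links proteins, differed by 0.83 (unadjusted p = 0.00410) and 0.48 (unadjusted p = 0.00202). Both rose in each genotype. Trib1, a pseudokinase that steers degradation of C/EBP factors, differed by 0.76 (unadjusted p = 0.00428), with the genotype difference at -0.70 in the contralateral and 0.05 in the ipsilateral hemisphere. The remaining 3, the Y RNA binding protein gene RO60, the Golgi nucleotide sugar transporter gene Slc35a3 and the histone demethylase gene Kdm5a, differed by 0.28, 0.40 and 0.27, and all had an adjusted p of 0.874.

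In the lower direction the 10 genes were Pak6, Samd11, Rhbdf1, Dlk2, Rem2, Rhbdl1, Rnf208, Lingo1, Shisa4 and Ubald1, all again with an adjusted p of 0.874 by edgeR. Samd11 had the largest difference of the 10. Its levels went from 1.82, 1.70 and 1.82 to 6.48, 5.21 and 5.95 CPM in WT and from 2.60, 2.50 and 2.23 to 5.87, 3.24 and 3.71 CPM in Lama4-/- pools, a rise in both, with a difference of -0.95 (unadjusted p = 0.00214). Pak6, a p21-activated kinase, had log2 changes of 0.02, -0.07 and 0.08 in WT and -0.43, -0.32 and -0.26 in Lama4-/- pools, a difference of -0.35 (unadjusted p = 0.00130). It did not pass the test in WT and fell by 0.34 in Lama4-/- mice. The same held for Dlk2, a non-canonical Notch ligand, for Rem2, a small GTPase that restrains voltage-gated calcium channels, and for Lingo1, a partner of the Nogo receptor that limits axon growth and myelination. Their differences were -0.44, -0.42 and -0.31. Rhbdf1, an inactive rhomboid that regulates the protease Adam17, rose in both genotypes, by 0.76 in WT and 0.39 in Lama4-/-. The rhomboid protease gene Rhbdl1 and the genes Rnf208, Shisa4 and Ubald1 differed by -0.31, -0.29, -0.23 and -0.30.

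**Figure D2:**
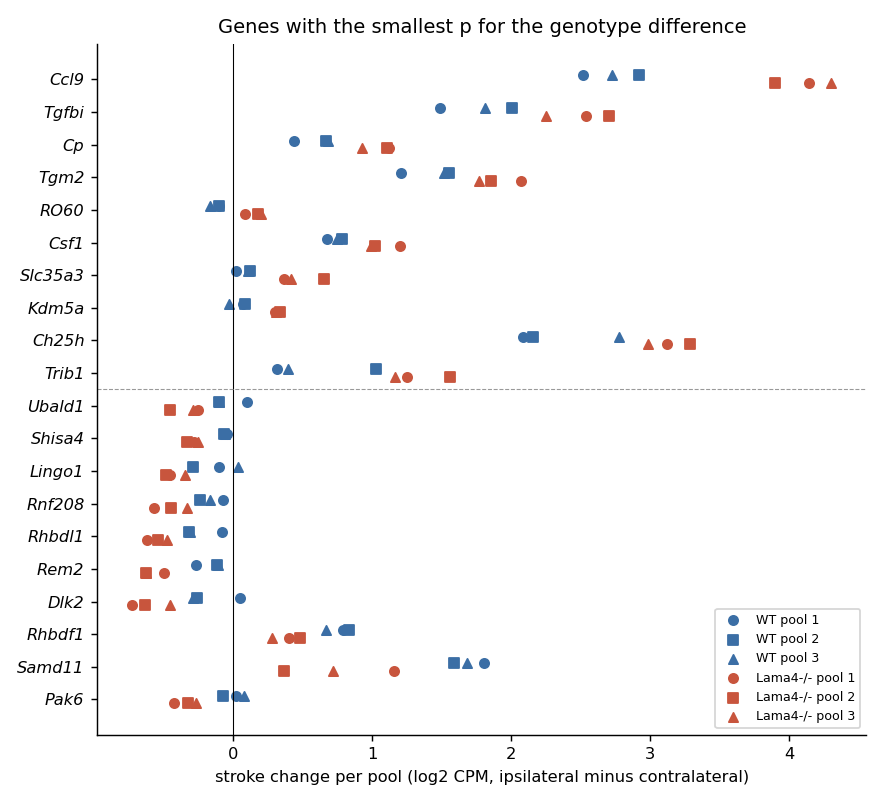
Stroke change of each pool (log2 CPM, ipsilateral minus contralateral) for the 10 genes with the smallest p in the higher direction (above the dashed line) and the 10 in the lower direction (below it); blue symbols are WT pools, red symbols Lama4-/- pools, and the symbol shape gives the pool number. The red and blue symbols of Ccl9 are separated, from 2.92 to 3.90, and in all 20 rows the pools do not overlap, which is how the genes were chosen.

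Neutrophil and monocyte markers had the largest median differences of the 56 gene lists with the filter used here, at low levels. Of 12 neutrophil markers 7 had enough reads to be tested, and Ly6g, Mmp8, Camp, Ngp and Stfa2l1 did not. All 7 of 7 were above 0, with a median of 1.41, 2 had an unadjusted p under 0.05, against 2.02% of all tested genes in that direction, and none was called. The filter needed enough reads in only 3 libraries, so a marker could pass through the group where it was high. The count of members above 0 is therefore not a test. Over the 6 pools left out in turn the median ran from 0.66 without Lama4-/- pool 2 to 1.93 without Lama4-/- pool 3. The median change of the list was 1.05, 0.87 and 0.71 in WT and 2.26, 3.37 and 0.52 in Lama4-/- pools, so Lama4-/- pool 3 lay below every WT pool. S100a9, a calcium-binding alarmin of neutrophils, had 46, 36 and 26 reads in the WT ipsilateral libraries and 185, 245 and 27 in the Lama4-/- ones, a difference of 2.16 (unadjusted p = 0.0171). Csf3r, the receptor of granulocyte colony-stimulating factor, differed by 0.50 (unadjusted p = 0.0325). The summed level of the tested markers was 8.46 to 8.83 CPM in WT contralateral, 9.44 to 11.7 in WT ipsilateral, 7.84 to 8.97 in Lama4-/- contralateral and 10.4 to 28.9 in Lama4-/- ipsilateral libraries. Most of the WT contralateral sum came from Csf3r, with 188, 127 and 263 reads in these libraries, against 18, 14 and 20 for S100a9. In bulk tissue, more cells of a type and more RNA per cell cannot be told apart.

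Of 13 monocyte and macrophage markers 10 were tested, and Ly6c2, Plac8 and Clec4e were not. All 10 were above 0, with a median of 0.84, and 6 had an unadjusted p under 0.05 in the higher direction (2.02% of all tested genes). These counts depend on the same filter and are not a test. With at least 1 CPM required in 6 libraries, the median of the members that remained was 0.13, and that of the neutrophil list 0.49. S100a9, Chil3 and Ccr2 did not pass that filter, whereas Csf3r did, so these medians rest on fewer members than the main ones. Of 14 lymphocyte markers 3 were tested, 1 of them above 0, with a median of -0.27. The list medians were 1.04, 1.64 and 1.50 in WT and 2.91, 3.37 and 1.59 in Lama4-/- pools, with WT pool 2 above Lama4-/- pool 3. Most of the summed level of the list came from fibronectin, Fn1, a matrix gene that also stands in the fibroblast list, at 159, 139 and 155 CPM in WT ipsilateral and 187, 212 and 159.6 CPM in Lama4-/- ipsilateral libraries. The sum was 229.7 to 249.8 CPM in WT ipsilateral and 231 to 336 CPM in Lama4-/- ipsilateral libraries, and 151 to 172 and 148 to 156 CPM in the contralateral ones. Chil3, a chitinase-like protein of alternatively activated macrophages and neutrophils, had 21, 24 and 22 reads in WT ipsilateral and 255, 102 and 34 reads in Lama4-/- ipsilateral libraries. It differed by 2.52 (SE 0.53, 95% interval 1.35 to 3.69, unadjusted p = 0.000690, adjusted p = 0.874) by edgeR, and its pools did not overlap. Ccr2, the receptor that draws monocytes to Ccl2, had log2 changes of 1.60, 0.42 and 0.85 in WT and 2.79, 3.34 and 1.58 in Lama4-/- pools, a difference of 1.85 (unadjusted p = 0.00312), and here Lama4-/- pool 3 lay just below WT pool 1.

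Cytokine and chemokine genes had list medians above 0, with wide intervals for single genes. Il1b, the gene of interleukin 1 beta, at chr2:129364569-129371164 (mm10), was at 0.433, 0.302 and 0.233 CPM in WT contralateral and 0.641, 0.563 and 0.590 CPM in WT ipsilateral libraries. In Lama4-/- libraries it was at 0.130, 0.216 and 0.275 CPM contralateral and 2.13, 2.19 and 1.66 CPM ipsilateral, from 54 to 88 reads in the latter. Every Lama4-/- ipsilateral library was above every WT one, and the difference of changes was 2.39 (SE 0.46, 95% interval 1.36 to 3.42, unadjusted p = 0.000406, adjusted p = 0.874) by edgeR. Il1b was called in Lama4-/- and not in WT. The differences of the other reference cytokines spanned 0: Il6 was 1.93 (95% interval -0.21 to 4.07) and Tnf -0.07 (-1.35 to 1.22). Of 13 cytokines tested of 15, 10 were above 0, with a median of 0.34, and of 18 chemokines tested of 20, 15 were above 0, with a median of 0.39. Ccl2 and Cxcl1, which draw monocytes and neutrophils, differed by 1.94 (-0.18 to 4.06) and 0.95 (-1.88 to 3.79), and Ccl3 by 0.10 (-0.89 to 1.08). Cx3cl1, the neuronal ligand of the microglial receptor Cx3cr1, was lower, at -0.15 (unadjusted p = 0.0454). The wide intervals of Il6, Ccl2 and Cxcl1 came with WT pools that differed among themselves, where Cxcl1 had log2 changes of 2.79, 6.50 and 3.86. The neutrophil and monocyte lists, given above, also had medians above 0, and the part of these cells in the cytokine values was not tested.

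**Figure D3:**
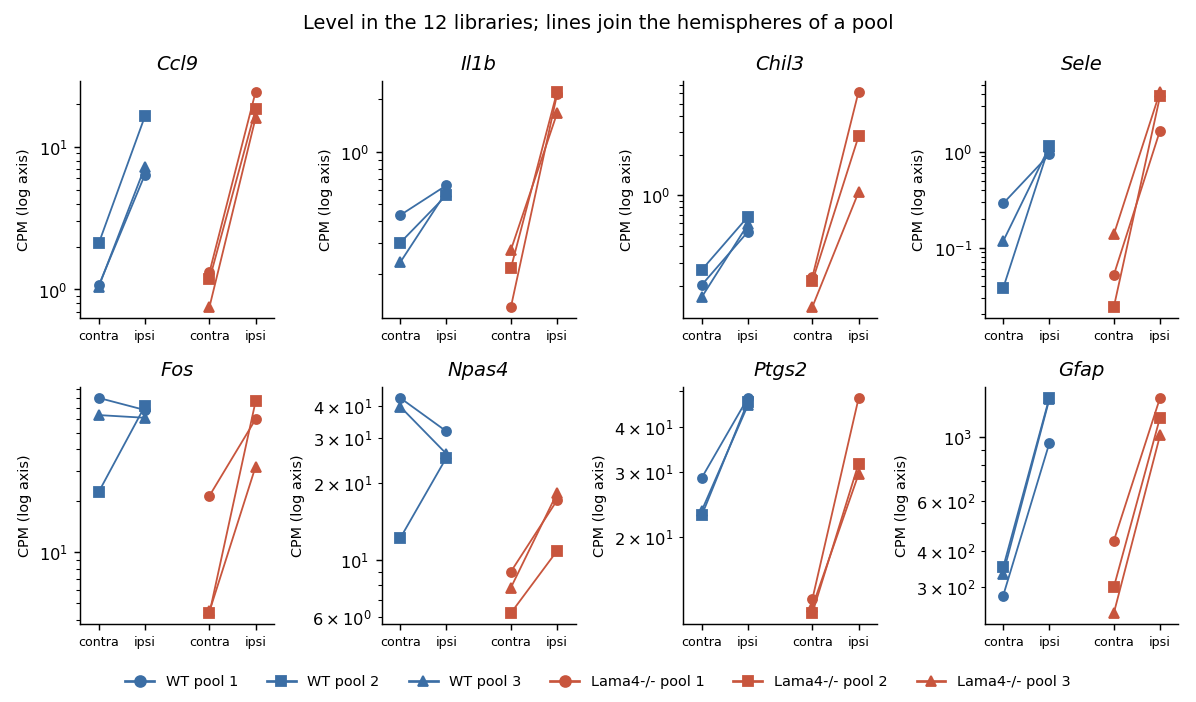
Level of 8 genes (CPM, log axis) in the contralateral and ipsilateral hemisphere of each of the 6 pools, with a line joining the hemispheres of a pool; WT is blue and Lama4-/- red. Il1b ends between 1.66 and 2.19 CPM in the Lama4-/- ipsilateral libraries and below 1 CPM in the WT ones, whereas Fos and Npas4 are lower in Lama4-/- than in every WT library of the contralateral hemisphere, Npas4 also in the ipsilateral one, and the 3 lines of Gfap run alike in both genotypes.

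The medians of the endothelial lists lay on both sides of 0. All 16 of 16 pan-endothelial markers had a difference above 0, with a median of 0.18, against 46.8% of all tested genes, and 1 had an unadjusted p under 0.05. That gene was Tek, the angiopoietin receptor, with 0.33 (unadjusted p = 0.0296), and next was the VEGF receptor gene Kdr with 0.38 (unadjusted p = 0.161). Of the 16 markers, 12 rose in Lama4-/- (16.2% of all tested genes) and 8 in WT (13.2%), and more genes were called in Lama4-/- over the whole table as well. Arterial markers had 9 of 14 above 0 and a median of 0.12, which was -0.02 without Lama4-/- pool 2, and capillary markers had 5 of 14 above 0 and a median of -0.03, which was 0.02 without WT pool 2. The summed level of the pan-endothelial markers was 445 to 601 CPM in WT ipsilateral and 527 to 717 CPM in Lama4-/- ipsilateral libraries, and WT pool 2 reached the Lama4-/- range. Of 13 venous and adhesion genes 11 were above 0, with a median of 0.29. Sele, the E-selectin that slows rolling leukocytes, had 10, 1 and 5 reads in WT contralateral libraries and 2, 1 and 4 in Lama4-/- ones, and 38, 41 and 42 against 69, 138 and 138 in the ipsilateral libraries. It differed by 2.76 (SE 0.82, 95% interval 0.92 to 4.59, unadjusted p = 0.00735, adjusted p = 0.874) by edgeR. Selp, the P-selectin of venules and platelets, differed by 2.62 (unadjusted p = 0.0396), with WT pool 2 (4.05) within the Lama4-/- range of 3.42 to 4.98. Icam1, the integrin ligand for leukocyte arrest, differed by 0.83 (unadjusted p = 0.0775), and Ctsc, a lysosomal protease of that list, by 0.29 (unadjusted p = 0.0180). Esm1, a tip cell proteoglycan, differed by 1.23 (unadjusted p = 0.00673) and its pools did not overlap. The tight junction gene Cldn5 and the fenestral diaphragm gene Plvap differed by 0.02 (-0.38 to 0.41) and -0.24 (-0.53 to 0.05).

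Flow-responsive genes and YAP targets were all above 0, 9 of 9, with a median of 0.30. All 9 rose in Lama4-/- (16.2% of all tested genes) and 5 in WT (13.2%). Ccn1, a matricellular protein, was at 12.5, 5.05 and 13.3 CPM in WT contralateral and 5.24, 3.12 and 3.13 CPM in Lama4-/- contralateral libraries, and at 20.0, 32.4 and 25.2 and 32.6, 37.3 and 19.3 CPM in the ipsilateral ones. Its genotype difference was thus -1.34 in the contralateral and 0.18 in the ipsilateral hemisphere, and its changes differed by 1.63 (unadjusted p = 0.0246). Amotl2, an angiomotin of endothelial junctions, and the flow-induced factor gene Klf2 differed by 0.22 (unadjusted p = 0.0284) and 0.31 (unadjusted p = 0.231). Of the 10 other laminin chains 6 were above 0, with a median of 0.06 that was just below 0 without Lama4-/- pool 2, and Lama5, the other alpha chain of vascular laminins, differed by 0.06 (-0.33 to 0.45), and Lamc1, the gamma 1 chain, by 0.22 (unadjusted p = 0.160). For 13 genes of collagen IV, nidogens and proteoglycans the median was 0.15, with Col4a1 at 0.34 (unadjusted p = 0.0851) and Col18a1 at 0.39 (unadjusted p = 0.0473). Itga1, a collagen and laminin receptor chain, had log2 changes of 0.18, 0.69 and 0.12 in WT and 0.70, 1.01 and 0.84 in Lama4-/- pools, a difference of 0.53 (unadjusted p = 0.0147). Matrix proteases and their inhibitors had 15 of 16 above 0, with a median of 0.35, with the urokinase gene Plau at 0.54 (unadjusted p = 0.0726) and Timp1, an inhibitor of matrix metalloproteases, at 0.81 (unadjusted p = 0.117).

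Immediate early and activity genes had a median genotype difference below 0 in both hemispheres, farther from 0 in the one without stroke. All 20 members were tested, 15 had a difference above 0 (46.8% of all tested genes), and the median was 0.48. By edgeR, 3 were higher at an unadjusted p under 0.05 (2.02% of all tested genes). Pools did not overlap for 0 members in the higher direction (4.51% of all tested genes) and for 1 in the lower (6.91%). The genotype difference had a median of -0.78 in the contralateral and -0.45 in the ipsilateral hemisphere. Fos, the AP-1 subunit, was at 80.3, 22.6 and 63.7 CPM in WT contralateral and 21.4, 4.40 and 4.50 CPM in Lama4-/- contralateral libraries, and at 68.2, 72.0 and 61.4 and 60.2, 76.7 and 31.8 CPM in the ipsilateral ones. WT pool 2 stood apart within its group, with a contralateral level near that of Lama4-/- pool 1. The changes of Fos were -0.24, 1.67 and -0.05 in WT and 1.49, 4.11 and 2.80 in Lama4-/- pools, which overlapped, and differed by 2.29 (SE 0.82, 95% interval 0.28 to 4.29, unadjusted p = 0.0318, adjusted p = 0.874) by edgeR. Npas4, a neuronal factor induced by calcium entry, had log2 changes of -0.43, 1.04 and -0.61 in WT and 0.92, 0.80 and 1.22 in Lama4-/- pools, a difference of 1.05 (unadjusted p = 0.0472). Arc, a synaptic protein, was at 359, 158 and 203 CPM in WT ipsilateral and 114, 57.7 and 93.6 CPM in Lama4-/- ipsilateral libraries, lower in each of the latter, and its changes differed by 0.78 (unadjusted p = 0.0236). Ptgs2, the inducible cyclooxygenase, stands in a separate list of late activity and neurotrophic genes. It rose in both genotypes and differed by 0.57 (unadjusted p = 0.00519), and its pools did not overlap. Of the 14 tested genes of that late list 8 were above 0, with a median of 0.02. Over the pools left out this median ran from -0.05 to 0.09. Pools did not overlap for 1 of its members in the higher direction and for 2 in the lower (4.51% and 6.91% of all tested genes). Dusp1, a phosphatase of MAP kinases, and the neurotrophin gene Bdnf differed by 0.43 (unadjusted p = 0.164) and 0.02 (unadjusted p = 0.906).

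Leaving out WT pool 2 changed the calls of the comparison from 0 to 2, and both were activity genes. Npas4 then differed by 1.51 (adjusted p = 0.0361) and Btg2, an antiproliferative gene of the immediate early response, by 1.37 (adjusted p = 0.0363, both by edgeR). Btg2 was named because of this call, after its values were seen. With all pools its levels were 46.5, 20.6 and 50.5 CPM in WT contralateral and 14.1, 14.2 and 14.7 CPM in Lama4-/- contralateral libraries, and 35.5, 41.3 and 36.8 and 26.7, 32.3 and 24.1 CPM in the ipsilateral ones, a difference of changes of 0.93 (unadjusted p = 0.0514). The median of the activity list was -0.22, 0.72 and -0.16 in the WT pools and 0.29, 1.12 and 0.73 in the Lama4-/- pools, so WT pool 2 was within the Lama4-/- range. Without WT pool 2 the list median was 0.58, and over the 6 pools left out in turn it ran from 0.23 to 0.68.

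Glial and interferon genes lay on both sides of 0. Gfap, the intermediate filament of reactive astrocytes, had log2 changes of 1.77, 1.97 and 2.03 in WT and 1.66, 1.97 and 2.06 in Lama4-/- pools, and its difference of -0.03 had a 95% interval of -0.28 to 0.22. All 14 reactive astrocyte genes rose in both genotypes, against 13.2% of all tested genes in WT and 16.2% in Lama4-/-. Their median difference was 0.22, which was -0.05 without WT pool 1. Serpina3n, a secreted protease inhibitor of that list, rose by 2.92 in WT and 2.58 in Lama4-/- mice, a difference of -0.34 (unadjusted p = 0.0142). Lcn2, an iron-siderophore binding protein, differed by 0.48 (-0.77 to 1.73). Of 14 homeostatic microglia markers 1 was above 0 (46.8% of all tested genes), with a median of -0.16. The median change of this list was 0.14, 0.16 and 0.07 in the WT pools and 0.19, -0.04 and -0.01 in the Lama4-/- pools. Lama4-/- pool 1 thus lay above every WT pool. Tmem119, a microglial surface protein, had log2 changes of 0.22, 0.13 and -0.21 in WT and -0.20, -0.57 and -0.45 in Lama4-/- pools, a difference of -0.45 (unadjusted p = 0.0102), and Gpr34 differed by -0.51 (unadjusted p = 0.0667). Activated microglia markers had a median of 0.02, from -0.07 to 0.12 over the pools left out, with Spp1, osteopontin, at 0.62 (unadjusted p = 0.0337) and the integrin gene Itgax at 0.86 (unadjusted p = 0.0549). All 19 tested interferon-stimulated genes rose in both genotypes (13.2% of all tested genes in WT and 16.2% in Lama4-/-). A difference above 0 was found for 5 of the 19, and the median was -0.16. Their genotype difference was 0.33 in the contralateral and 0.11 in the ipsilateral hemisphere. Usp18, which restrains interferon receptor signalling, differed by -0.56 (unadjusted p = 0.0492), and Irf7 and Ifit1 by -0.42 and -0.48.

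Neuronal and metabolic genes had small differences. All 14 striatal medium spiny neuron markers fell in both genotypes, against 10.3% of all tested genes in WT and 15.7% in Lama4-/-. Their median difference was -0.11, with 2 above 0. That median was 0.03 without Lama4-/- pool 2. Drd2, the dopamine D2 receptor, had log2 changes of -1.24, -1.08 and -0.91 in WT and -0.87, -1.55 and -1.31 in Lama4-/- pools, a difference of -0.16 (-0.55 to 0.22), and Rasd2, a striatal GTPase, and Adcy5, an adenylyl cyclase of these neurons, differed by -0.23 (unadjusted p = 0.0537) and -0.15 (unadjusted p = 0.0987). Nrgn, a calmodulin-binding postsynaptic protein, fell by 0.44 in WT and 0.70 in Lama4-/- mice, a difference of -0.26 (unadjusted p = 0.0175), and the interneuron peptide gene Sst differed by -0.30 (unadjusted p = 0.0156). Nuclear oxidative phosphorylation subunits were all below 0, 0 of 20 above it (46.8% of all tested genes), with a median of -0.13, which was -0.04 without Lama4-/- pool 2. Pools did not overlap for 4, lower in Lama4-/- (6.91% of all tested genes). The median change of the list was 0.03, -0.08 and -0.15 in WT and -0.13, -0.39 and -0.12 in Lama4-/- pools, so WT pool 3 lay below Lama4-/- pools 1 and 3. The genotype difference of these subunits was 0.17 in the contralateral and 0.06 in the ipsilateral hemisphere. Atp5e, an ATP synthase subunit, and Uqcrq, a complex III subunit, differed by -0.20 (unadjusted p = 0.0545) and -0.23 (unadjusted p = 0.0603). Heat shock genes had a median of 0.01, from -0.15 to 0.17 over the pools left out, with Hspa4l at 0.16 (unadjusted p = 0.0403), and Hspa1b, an inducible Hsp70, went from 6.76, 6.94 and 7.25 to 165, 122 and 82.5 CPM in WT and from 4.80, 7.31 and 6.08 to 139.8, 53.7 and 141 CPM in Lama4-/- pools. Its difference was -0.01 with a 95% interval of -1.35 to 1.33, so a 2-fold difference was not excluded. Hmox1, heme oxygenase 1, rose in both genotypes and differed by 0.43 (unadjusted p = 0.0684), and the metallothionein gene Mt1 by -0.26 (unadjusted p = 0.00992).

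**Figure D4:**
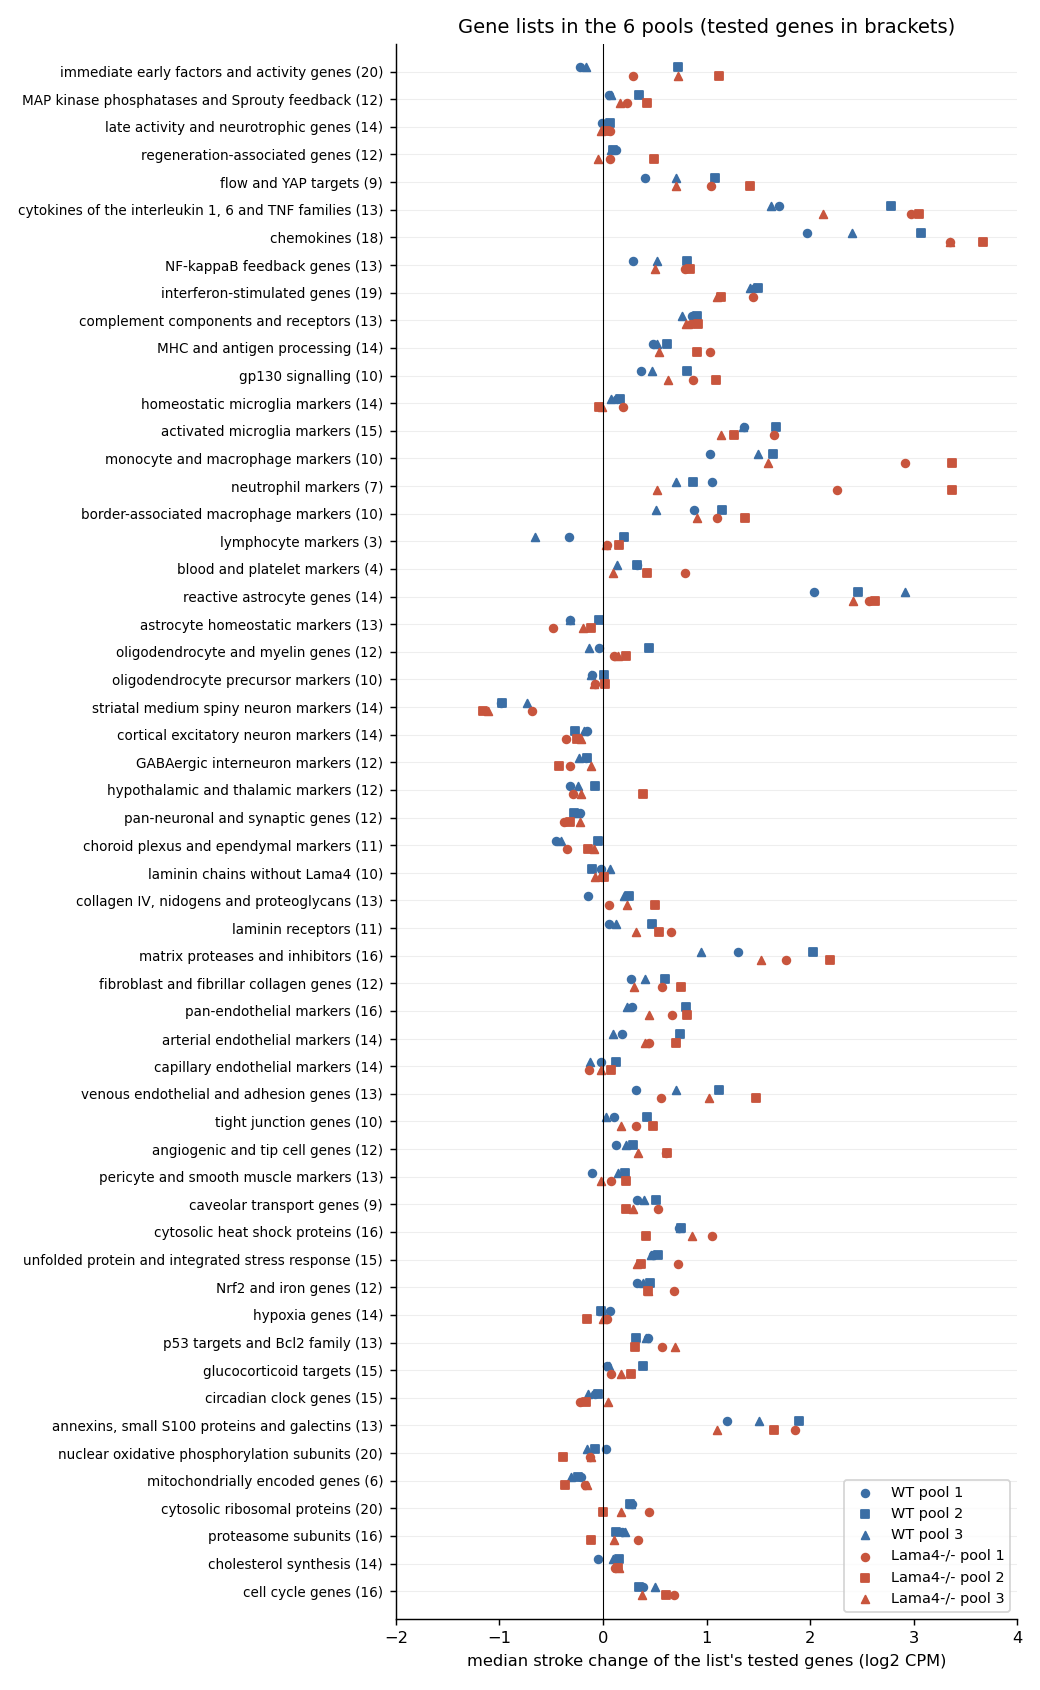
Median stroke change (log2 CPM, ipsilateral minus contralateral) of the tested members of each of 56 gene lists in the 6 pools, with the number of tested genes in brackets. The neutrophil and monocyte lists reach medians of 3.37 in Lama4-/- pool 2, while Lama4-/- pool 3 lies at 0.52 and 1.59; for most lists red and blue symbols are mixed.

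Of the 56 list medians 39 lay above 0 and 17 below, and edgeR called no member of any list with all pools. DESeq2 called Ccl9, of the chemokine list, and edgeR called Npas4, of the immediate early list, when WT pool 2 was left out. The lists held 737 distinct gene symbols, of which 694 were tested and 28 stood in more than 1 list. The sign of the median was kept in 31 lists over 9 alternatives, 23 above 0 and 8 below. The 9 were no pool term, DESeq2 size factors, at least 1 CPM in 6 libraries, and each of the 6 pools left out. The reactive astrocyte, striatal and ribosomal lists were not among the 31. The difference of changes can come from either hemisphere. Of the 665 genes with an unadjusted p under 0.05, 485 had the larger genotype difference in the contralateral and 180 in the ipsilateral hemisphere, and over all tested genes the share with the larger difference in the contralateral hemisphere was 62.3%.

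**Figure D5:**
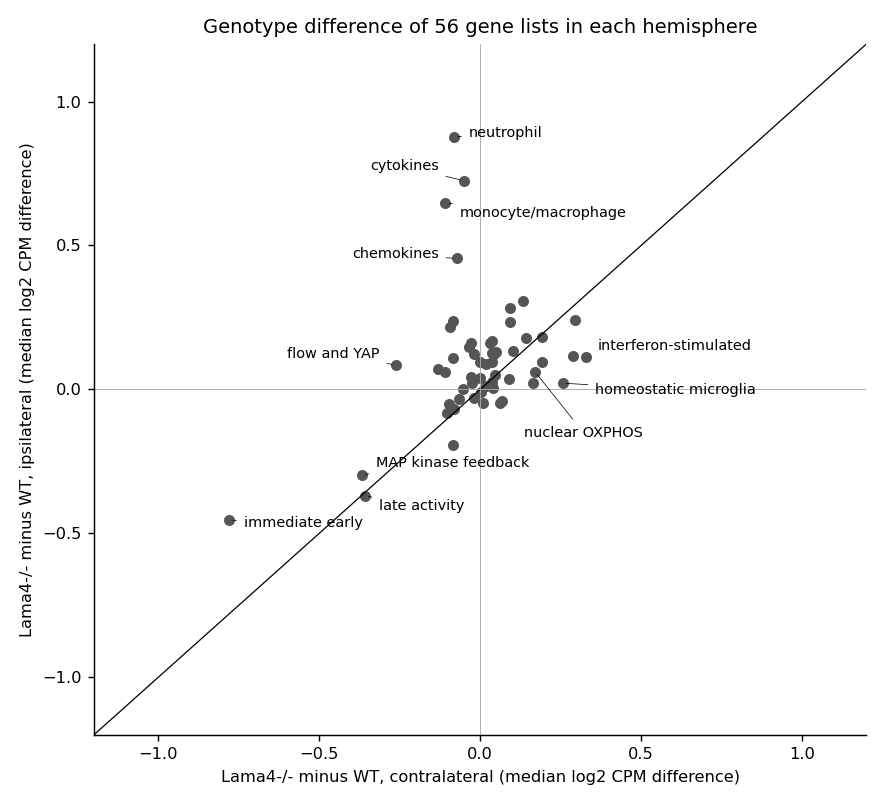
Median genotype difference (Lama4-/- minus WT, log2 CPM) of 56 gene lists in the contralateral (x axis) and ipsilateral hemisphere (y axis), 1 point per list; points above the diagonal have a higher genotype difference in the ipsilateral than in the contralateral hemisphere. The neutrophil list lies at -0.08 and 0.88, and the immediate early list at -0.78 and -0.45.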

How the data were processed

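Bulk polyA RNA was sequenced from both brain hemispheres of 6 pools of 2 mice. The authors deposited raw counts per gene; per the submitters' processing notes these came from bcl2fastq, FastQC 0.72, STAR 2.6.0, featureCounts 1.6.4 and mm10, and DESeq2 was also named there. Which annotation and strand setting were used is not given in the sources used here. Whether overlapping antisense genes were counted apart is therefore unknown. Per the labels the libraries were made with a single-cell 3′ kit, although the samples are bulk RNA; which ends of the transcripts the reads cover was not tested.

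Counts were fitted in R 4.3.3 with edgeR 4.0.16 (TMM scaling, filterByExpr over the 4 groups, robust quasi-likelihood fit). Terms were the 6 pools and a stroke effect in each genotype, which left 4 residual degrees of freedom; the difference of the stroke effects was tested with Benjamini-Hochberg adjustment over 15351 genes at 0.05. CPM are TMM-scaled except for the markers Ly6g, Ly6c2, Cd3e, Hba-a1 and Doc2g and the CPM ranges of S100a8, Ccr2 and Hbb-bs. Changes per pool used log2 CPM with a prior count of 2. The labels give both hemispheres of a pool the same number, without saying that they came from the same mice or that pools were separate, so p-values measure the spread between these pools. The deviations of same-numbered hemispheres from their group means correlated at 0.250, 0.325 and 0.207 in WT and 0.239, 0.109 and 0.337 in Lama4-/-, and on this basis the numbers were taken to pair the hemispheres. No 2 libraries of a group agreed within sampling noise. Each pool counts as 1 replicate. The intervals given are those of the log2 difference in the edgeR quasi-likelihood fit, and they include the spread between pools.

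Alternatives used DESeq2 1.42.0, limma 3.58.1, DESeq2 size factors, other filters, a fit that was not robust, no pool term, and each pool left out. The code was tested on simulated data. Named genes were Lama4, the 10 with the smallest p in each direction among genes with a mean log2 CPM of at least 1 and pools that did not overlap, the 2 with the smallest p in a list described, and reference genes. The members, the lists and the tests were chosen with earlier results of these data known. Motifs and the 3 promoters were chosen after the results were seen. Gene coordinates are from GENCODE M21 and promoters from RefSeq.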

Additional observations from a re-analysis of the deposited data

How the results depend on the processing

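The edgeR count of genes whose stroke response differed between genotypes was 0 with DESeq2 size factors, without a filter, with the stricter filter and with the fit that was not robust. In edgeR it ran from 0 to 2 over the 6 pools left out, with 2 only without WT pool 2 (Npas4 and Btg2), and the cause was not tested. Other methods gave a count of 0 with limma voom, 0 with limma on pool differences and 1 with DESeq2 (Ccl9). Without the pool pairing (no replicate block) the count was 0, with 244 genes at an unadjusted p under 0.05 against 665 with the pairing, and the count of genes changed by stroke in WT was 2361 in place of 3608. With pools left out, that WT count ran from 1577 to 4412, where the lower values had fewer WT pools. The counts for Lama4-/- and for the mean of both genotypes stayed within 1.5 times the main count under every alternative run. Of 82 named genes, 73 kept the sign of their difference under every alternative run. Over the pools left out, Lama4 ran from -0.18 to 0.64, Bdnf from -0.10 to 0.13, Tnf from -0.78 to 0.49, Ccl3 from -0.13 to 0.51, Cxcl1 from -0.16 to 2.18, Gfap from -0.10 to 0.093, Hspa1b from -0.41 to 0.63, Cldn5 from -0.12 to 0.21 and Lama5 from -0.13 to 0.25. Lama4 was -0.027 with limma on pool differences. Hspa1b, at -0.01 in the main result, was 0.058 without the pairing, 0.0046 with DESeq2 size factors, 0.035 with limma voom, 0.035 with DESeq2 and 0.0052 with limma on pool differences. Depth limits genes under 1 CPM such as Il1b, Sele and Chil3, whose contralateral values rest on 1 to 15 reads. Pools of 2 mice, 3 per genotype, limit the rest.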

Other observations

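Circadian, glucocorticoid, cholesterol and cell cycle genes also had small median differences, and none of their members was called by edgeR. For 15 circadian clock genes the median difference was -0.04, with 7 above 0. Clock, the core activator of the circadian oscillator, had log2 changes of 0.06, 0.02 and 0.03 in the WT pools and 0.26, 0.37 and 0.16 in the Lama4-/- pools, a difference of 0.22 (unadjusted p = 0.0151). The 3 Lama4-/- pools were all above the 3 WT pools, and the genotype difference was -0.33 in the contralateral and -0.11 in the ipsilateral hemisphere. Glucocorticoid targets had a median of 0.03, which turned below 0 without WT pool 1, with 9 of 15 above 0. Nr3c1, the glucocorticoid receptor, differed by 0.21 (unadjusted p = 0.0202). Cholesterol synthesis genes had 11 of 14 above 0 and a median of 0.08, and cell cycle genes 10 of 16 and 0.12, which was -0.02 without Lama4-/- pool 1.

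Cytosolic ribosomal protein genes rose in WT for 15 of 20 and in Lama4-/- for 8, against 13.2% and 16.2% of all tested genes, and 2 had a difference above 0, with a median of -0.07, which was 0.04 without Lama4-/- pool 2. Their genotype difference was 0.19 in the contralateral and 0.09 in the ipsilateral hemisphere. Rps2, a small subunit protein, had log2 changes of 0.49, 0.47 and 0.49 in WT and 0.58, 0.23 and 0.21 in Lama4-/- pools, a difference of -0.14 (unadjusted p = 0.182).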
